A study of Mus musculus with 14 samples.

Results

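The 45 genes described here encode the machinery that copies DNA and divides the cell: 12 genes of replication licensing and the fork, 3 of deoxynucleotide supply, 7 genes that are cyclins or Cdk1, 3 transcription factors, 6 mitotic kinases and checkpoint genes, 2 partners of the anaphase-promoting complex, 6 spindle genes, 4 centromere and passenger genes and 2 chromosome proteins. They were taken by symbol from a table of 23427 genes, and all 45 were found. The table holds mRNA-seq of 14 libraries of wild type C57BL/6J mouse primary oligodendrocyte precursor cells (OPCs), 2 in each of 7 groups. One group was harvested at Day0 as OPCs. The other 6 were harvested at Day3: a non-treated group, a mock transfection without siRNA, a group for each of the non-targeting siRNAs NC siRNA #1 and NC siRNA #2, a knockdown (KD) of Sbp2l, listed as Secisbp2l (siSbp2l), and a KD of Pdgfra (siPdgfra), the receptor through which platelet-derived growth factor A acts on OPCs. Per the study's methods, the cells came from the cortices of several postnatal pups by immunopanning on a PDGFRα antibody after removal of microglia and endothelial cells, grew with PDGF-AA, and were differentiated by withdrawing it and adding thyroid hormone.

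A dividing cell first loads the Mcm2 to Mcm7 helicase onto origins in G1, with Cdc6 and Cdt1, then activates it with Cdc45 and the GINS complex and copies DNA on the Pcna clamp. Cyclin E and E2f1 act at the start of S phase, and cyclin B with Cdk1 drives mitosis, which the Aurora and Polo kinases, the spindle and the anaphase-promoting complex carry through. OPCs are the main dividing glia of the postnatal brain, and they leave the cell cycle as they become oligodendrocytes (OLs). In bulk RNA, fewer cycling cells and less of a transcript in each cell cannot be told apart.

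Depth, estimated from the FPKM values (fragments per kilobase of a gene's exons, scaled to the depth of the library), lay between 6559814 and 31620710 fragments, with 1 library, NC siRNA #2 replicate 2, far below the next at 18481353. The log2 difference between paired libraries over 11874 genes had an SD of 0.457 in non-treated and of 0.148 to 0.1995 in the other 6 groups. Secisbp2l had 3.91 and 3.82 FPKM in siSbp2l and 134.7 to 255.2 in the other Day3 groups, and Pdgfra had 3.30 and 2.69 in siPdgfra and 32.4 to 149.9 elsewhere at Day3. The summed FPKM of 7 OL markers was 727 to 807 at Day0, 2664 to 2844 in siSbp2l, 5050 to 5799 in siPdgfra and 6730 to 10010 in the 4 control groups. Microglia, endothelial, mural and fibroblast markers were at or near 0, apart from P2ry12 and Kdr. Of 8 astrocyte markers, 2 were below 1 FPKM in each Day3 group, Aqp4 and Gja1. Gfap, S100b, Slc1a3, Slc1a2, Aldoc and Aldh1l1 were expressed in all Day3 libraries, from 2.361 FPKM (Aldh1l1) to 204.6 (S100b). The neuron list rested mostly on Tubb3, with 46.28 to 273.5 FPKM at Day3. Syt1 reached 5.159, and Stmn2 and Neurod6 were at or near 0.

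All 45 genes were lower at Day3 than at Day0 in every Day3 group, and no library of Day3 reached a library of Day0 for any of them. Of all 11874 genes tested, 25.8% showed this order. The summed level of the 45 genes was 3419 and 3468 FPKM at Day0. At Day3 it split into a higher and a lower range. It was 337.8 and 326.8 in non-treated, 321.4 and 328.9 in mock and 308.0 and 322.4 in siPdgfra. In the remaining groups it was 145.1 and 149.8 (NC siRNA #1), 186.1 and 176.7 (NC siRNA #2), and 193.3 and 191.8 (siSbp2l). The heat map of levels shows this order gene by gene.

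**Figure D1:**
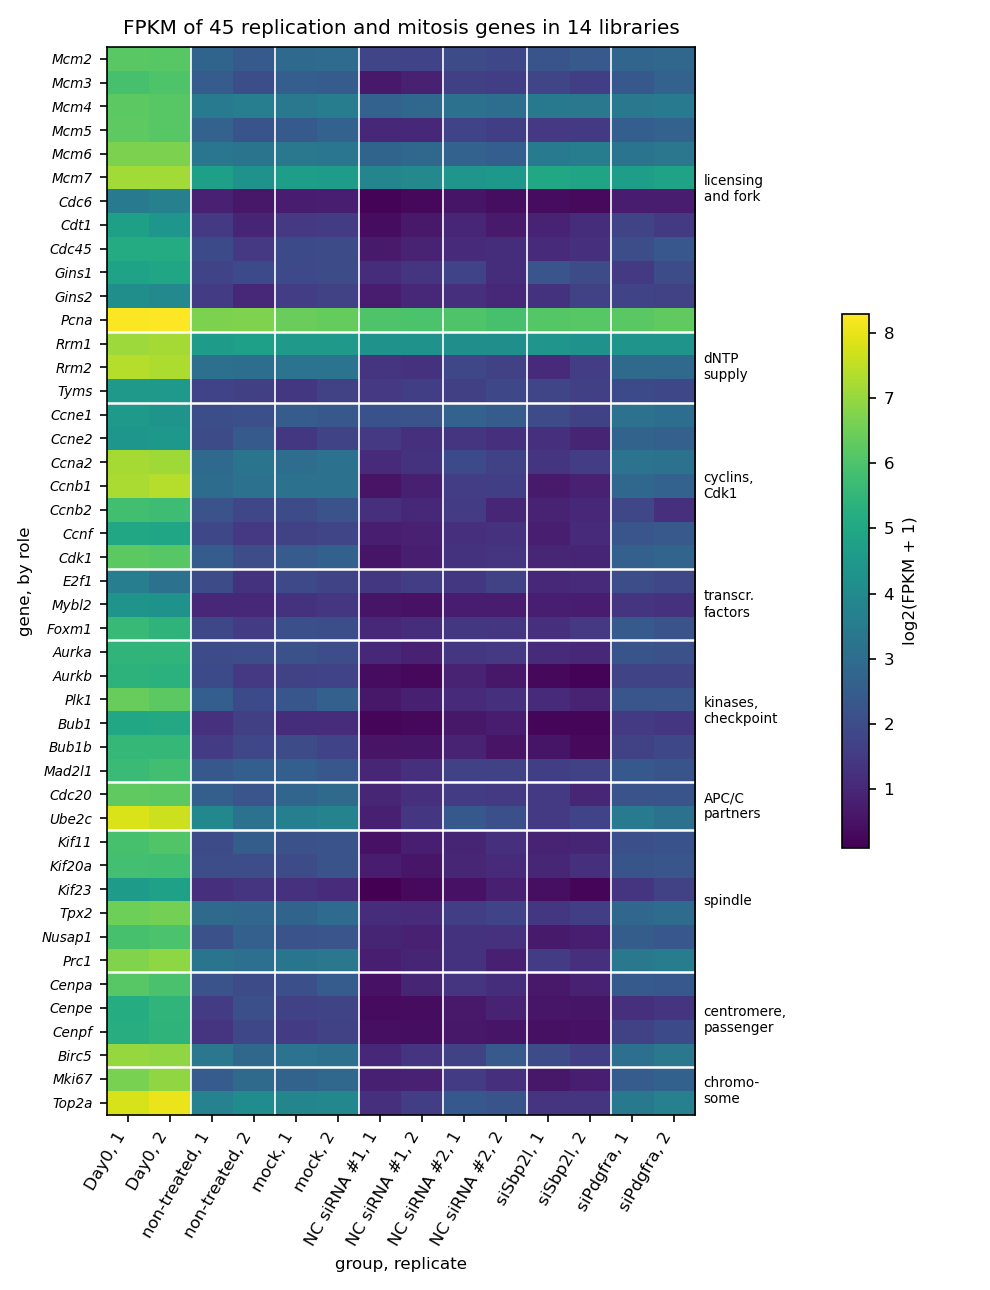
Heat map of log2(FPKM + 1) of the 45 genes (rows, grouped by role) in the 14 libraries (columns, group and replicate). Day0 is highest in every row, and within Day3 the NC siRNA and siSbp2l columns are darker than non-treated, mock and siPdgfra in most rows below the licensing genes.

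In limma on log2(FPKM + 1), with all 14 libraries in 1 fit and Benjamini-Hochberg adjustment over 11874 genes, all 45 genes passed a 2-fold change with an adjusted p under 0.05 in each Day3 group against Day0. Of all genes tested, 15.2% were called lower in non-treated, 14% in mock, 16.1% in NC siRNA #1, 14.7% in NC siRNA #2, 10.7% in siSbp2l and 13.9% in siPdgfra. The median log2 fold change of the 45 genes was -3.58 in non-treated, -3.51 in mock, -3.46 in siPdgfra, -4.34 in NC siRNA #2, -4.70 in siSbp2l and -4.78 in NC siRNA #1, where the median over all genes lay between -0.12 and 0.10. These comparisons share the Day0 libraries. All 45 genes passed the filter of 1 FPKM in 2 libraries at Day0, and the added 1 FPKM makes the fold changes smaller than the ratios of FPKM for genes that end near 0.

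The genes kept unequal shares of their Day0 level. Ccnb1, cyclin B1 (mm10 chr13:100778739-100786486, minus strand), had 152 and 167 FPKM at Day0, 6.93 and 8.19 in non-treated and 7.91 and 8.22 in mock, and changed by -4.23 ± 0.13 (SE, limma, adjusted p = 3.29e-10) in non-treated against Day0, the largest fall of the set there. Rrm2, the regulated subunit of ribonucleotide reductase, followed at -4.22 ± 0.14, then Ube2c, the ubiquitin-conjugating enzyme of the anaphase-promoting complex, at -4.18 ± 0.24. Mki67, the gene of the Ki-67 antigen that coats mitotic chromosomes, changed by -4.09 ± 0.17 and Top2a, the topoisomerase that untangles sister chromatids, by -4.01 ± 0.16. The leading members of the other roles were Plk1, the Polo kinase, at -4.07 ± 0.18, Cenpa, the centromeric histone, at -3.96 ± 0.17, Foxm1, an activator of mitotic genes, at -3.84 ± 0.14, Kif20a, a kinesin of cytokinesis, at -3.79 ± 0.12, and the helicase subunit Mcm5 at -3.77 ± 0.14.

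Pcna lay at the other end. It had 301 and 312 FPKM at Day0, 101 and 104 in non-treated, 85.4 and 81.4 in mock, 65.2 and 61.5 in NC siRNA #1, 65.3 and 59.3 in NC siRNA #2, 69.7 and 70.2 in siSbp2l and 72.3 and 78.0 in siPdgfra. Its mean in non-treated was 33.4% of Day0, whereas the median of the 45 genes was 6.22% there, 6.87% in mock, 7.41% in siPdgfra, 2.64% in NC siRNA #2, 2.12% in siSbp2l and 1.44% in NC siRNA #1. E2f1, with 11.2 and 8.04 FPKM at Day0 and 2.998 and 1.47 in non-treated, changed by -1.74 ± 0.21 (SE, limma, adjusted p = 2.45e-05), and the cyclin E genes Ccne1 and Ccne2 by -2.37 ± 0.12 and -2.25 ± 0.17. By role, the median share of Day0 kept in non-treated was 7.88% for licensing and fork genes and 10.4% for deoxynucleotide supply, and 5.46% to 6.55% in the other 7 roles.

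Genes of the same pathways outside the 45 fell as well. Of 36 other replication genes, 34 were called lower in non-treated against Day0, with a median log2 fold change of -2.65, led by Uhrf1 at -4.01, which carries DNA methylation through replication. Of 50 other mitosis genes, 49 were called lower, with a median of -3.24. Of 17 genes of the E2F, RB and DREAM network that switches these genes on and off, 8 were called lower and 4 were higher by adjusted p alone. E2f7, a repressor of the E2F family, led those called at -3.41.

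The promoters of these genes were searched for motifs of the factors known to switch them. RefSeq promoters (GRCm38.p6, 250 bases before to 50 after the transcript start) were found for 36 of the 45 genes, 38 promoters in all; Mcm4, Gins1, Gins2, Ccne2, Ccna2, Foxm1, Aurkb, Kif20a and Tpx2 had none in the table. Motifs of 3 kinds were searched on both strands: an E2F motif (TTGGCGC or TTCCCGC), a CHR motif (TTTGAA or TTCGAA), through which DREAM and B-Myb act on mitotic genes, and the CCAAT box (CCAAT), bound by NF-Y. The E2F motif stood in 61.5% of 13 promoters of licensing, fork and deoxynucleotide genes, in 12% of 25 promoters of the other genes and in 6.81% of all 32851 promoters in the table. The CHR motif stood in 23.1%, 68% and 19.2% of these, and CCAAT in 76.9%, 76% and 37.4%. Of 17 E2F matches in the promoters of these genes, 2 overlapped a CCAAT match. A match describes letters and not binding, and the shares were not tested. The 5 promoters printed here were chosen after the matches were seen, to show both layouts. Each is the 120 bases before the start on the gene's own strand, with matches in capitals. Mcm6 (chr1:128359706-128359825, minus strand) and Rrm1 (chr7:102441575-102441694, plus strand), the large subunit of ribonucleotide reductase, hold E2F and CCAAT matches. Cdk1 (chr10:69352913-69353032, minus strand), Top2a (chr11:99024190-99024309, minus strand) and Ube2c (chr2:164769809-164769928, plus strand) hold CHR matches beside CCAAT. On the other strand CCAAT reads ATTGG, and TTTGAA reads TTCAAA.
Mcm6: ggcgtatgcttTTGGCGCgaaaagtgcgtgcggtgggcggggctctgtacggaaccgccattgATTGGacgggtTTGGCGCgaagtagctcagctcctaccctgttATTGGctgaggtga
Rrm1: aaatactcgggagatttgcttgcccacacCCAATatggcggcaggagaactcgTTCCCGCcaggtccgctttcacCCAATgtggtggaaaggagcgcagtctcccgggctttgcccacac
Cdk1: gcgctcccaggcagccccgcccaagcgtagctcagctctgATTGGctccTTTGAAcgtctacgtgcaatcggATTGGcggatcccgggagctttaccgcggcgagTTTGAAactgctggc
Top2a: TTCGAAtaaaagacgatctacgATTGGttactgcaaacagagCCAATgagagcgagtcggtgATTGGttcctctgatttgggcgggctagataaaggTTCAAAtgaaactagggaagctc
Ube2c: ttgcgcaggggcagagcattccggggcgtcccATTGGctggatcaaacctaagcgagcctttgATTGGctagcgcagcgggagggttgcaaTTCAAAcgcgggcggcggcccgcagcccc

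Cells given a non-targeting siRNA had less mRNA of these genes than cells given none. Top2a (chr11:98992947-99024189, minus strand) had 12.3 and 16.0 FPKM in non-treated and 13.6 and 14.2 in mock, but 1.33 and 1.98 in NC siRNA #1 and 4.11 and 3.74 in NC siRNA #2. Ccnb1 had 0.438 and 0.770 in NC siRNA #1 and 1.99 and 2.11 in NC siRNA #2. The groups did not overlap for either gene, and all 4 NC siRNA libraries lay below all 4 libraries without siRNA for 38 of the 45 genes, where 8.05% of all 11650 genes tested at Day3 did so. The 7 exceptions were Mcm7, Cdt1, Gins2, Tyms, Ccne1, Ccne2 and E2f1, none of them a mitosis gene.

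In the fit of the 12 Day3 libraries (11650 genes), the mean of the NC siRNAs against the mean of non-treated and mock gave 23 of the 44 genes tested as 2-fold lower, where 0.807% of all genes were called lower, and none as higher. At adjusted p alone, 41 were lower (11.8% of all genes) and none higher. Of all 94 genes called lower in this comparison, 23 were thus among the 45. The median over all 45 was -1.04, against 0.03 for all genes tested. Such medians at Day3 include Cdc6, which was not tested there since it stayed under 1 FPKM in all 12 libraries, between 0.146 and 0.814. Aurkb, Bub1, Bub1b, Kif23, Cenpe, Cenpf and Mybl2 were under 1 FPKM in every NC siRNA and siSbp2l library. They passed the filter only through non-treated, mock and siPdgfra, where they were higher. Aurkb, Bub1b, Cenpe and Cenpf were among the 23. The same limit holds for these genes in the other comparisons between those sets of libraries. Prc1 (chr7:80294465-80316259, plus strand), which bundles the microtubules of the central spindle, changed most, by -2.28 ± 0.12 (SE, limma, adjusted p = 3.3e-06), and its mean without siRNA was 8.77 times that with NC siRNA. Top2a changed by -2.06 ± 0.11 (SE, limma, adjusted p = 3.3e-06), Ccnb1 by -2.0 ± 0.09, Ube2c by -1.97 ± 0.18, Mki67 by -1.63 ± 0.11, Rrm2 by -1.61 ± 0.10, Birc5, the survivin subunit of the passenger complex, by -1.51 ± 0.17 and Plk1 by -1.40 ± 0.13. Cdk1 changed by -1.40 ± 0.11, and its level went from 4.47 and 5.19 FPKM in mock to 0.479 and 0.716 in NC siRNA #1 and 1.46 and 1.60 in NC siRNA #2.

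In this comparison the median log2 fold change was -0.58 for the 12 licensing and fork genes, where 2 of 11 tested were called, Mcm3 at -1.19 ± 0.11 and Mcm5 at -1.15 ± 0.10. It was -1.09 for mitotic kinases and checkpoint genes (4 of 6 called), -1.21 for centromere and passenger genes (4 of 4), -1.29 for spindle genes (5 of 6), -1.65 for Cdc20 and Ube2c (2 of 2) and -1.84 for Mki67 and Top2a (2 of 2). Mcm2 changed by -0.91 ± 0.09, Pcna by -0.55 ± 0.07, Mcm7 by -0.41 ± 0.09 and Foxm1 by -0.66 ± 0.10. No change passed for E2f1 (-0.20 ± 0.14 SE, limma adjusted p = 0.322), Ccne1 (0.14 ± 0.09 SE, limma adjusted p = 0.265) or Tyms, thymidylate synthase (0.01 ± 0.10 SE, limma adjusted p = 0.926). Ccne1 had 3.16 and 3.28 FPKM in non-treated, 4.57 and 4.01 in mock, 3.48 and 3.57 in NC siRNA #1 and 5.37 and 4.597 in NC siRNA #2, so its groups overlapped. The difference between roles was not itself tested. Gins1 and Gins2, lower at adjusted p alone, lost this without either mock library, NC siRNA #1 replicate 1 or NC siRNA #2 replicate 2. In the other lists, 17 of 47 mitosis genes tested were called lower, led by Nuf2 of the kinetochore at -1.43, and 2 of 35 replication genes, led by Uhrf1 at -1.25. Of 16 regulators tested none was called in either direction (limma), with 1 higher and 6 lower at adjusted p alone. Markers of cell types moved in the same comparison. Of 9 OPC markers, 3 were lower and 1 higher at adjusted p alone, with a median of -0.16, and Pdgfra had 32.39 to 47.01 FPKM with the NC siRNAs and 61.3 to 72.06 without, while Ptprz1 had 54.04 to 62.78 and 78.96 to 118.2. Slc1a3, of the astrocyte list, had 20.16 to 32.18 and 39.59 to 42.45. Tubb3, a neuronal tubulin, had 118.3 to 273.5 FPKM with the NC siRNAs and 46.28 to 100.5 without siRNA, and P2ry12, a microglial receptor, had 2.939 to 9.459 and 0.703 to 1.803. Syt1, of the neuron list, had 1.659 and 1.705 FPKM in NC siRNA #1, 0.3652 and 0.3537 in NC siRNA #2 and 0.6203 to 0.8825 without siRNA. Stmn2, Neurod6, C1qb and Aif1, of the neuron and microglia lists, were at or near 0. In siPdgfra, Tubb3 had 234.7 and 230.4 FPKM, P2ry12 had 7.574 and 6.569, and the 45 genes summed to 308.0 and 322.4 FPKM. The part of these markers in the result was not tested.

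The NC siRNAs also differed from each other. NC siRNA #1 was lower than NC siRNA #2 for 15 of 44 genes at adjusted p alone (10.8% of all genes) and 2-fold lower for 1, Ube2c (1.63% of all genes), with a median of -0.41 against -0.06 for all genes. Ube2c had 0.763 and 1.64 FPKM in NC siRNA #1 and 4.13 and 3.27 in NC siRNA #2, a change of -1.12 ± 0.26 (SE, limma, adjusted p = 0.0115). Without NC siRNA #1 replicate 1 no gene of the set was called, and without NC siRNA #1 replicate 2 there were 3. Mock against non-treated gave 0 calls (limma, adjusted), with 5 of the 44 genes higher and 3 lower at an unadjusted p under 0.05. Of all 11650 genes, 1924 had such a p in either direction. No other tool was run. OL markers also differed between the NC siRNAs, with 4 of 7 called higher in NC siRNA #1. Mog had 64.42 and 67.2 FPKM in NC siRNA #1 and 5.229 and 5.446 in NC siRNA #2, and Mobp had 103 and 100.6 against 5.049 and 5.928. Tubb3 had 266.5 and 273.5 against 126 and 118.3. Their part in the result was not tested.

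**Figure D2:**
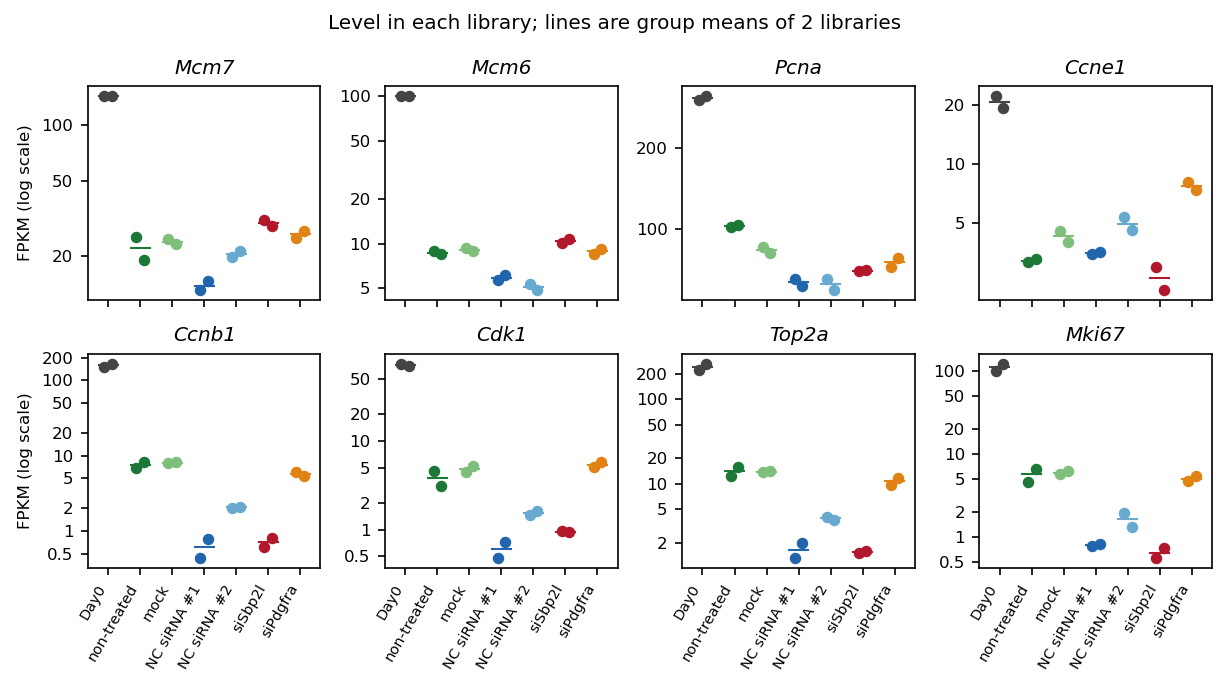
FPKM (log scale) of 8 of the genes in every library, points for libraries and lines for the mean of 2. Mcm7 and Mcm6 in siSbp2l lie at or above the level without siRNA, whereas Ccnb1, Cdk1, Top2a and Mki67 in siSbp2l lie far below it, with Mki67 also below all 4 NC siRNA libraries. In siPdgfra, Ccne1 lies above all 4 libraries without siRNA, and Ccnb1, Top2a and Pcna lie below them.

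In Sbp2l KD cells, as with the NC siRNAs, the subunits of the Mcm helicase kept unequal shares of their level without siRNA. In siSbp2l, Mcm6 and Mcm7 lay above all control libraries and Mcm2, Mcm3 and Mcm5 below cells without siRNA, while mitotic genes were low. Lying above controls was common in siSbp2l. Both its libraries were above all of non-treated and mock for 3 of the 45 genes, where 41.2% of all genes were. They were above all NC siRNA libraries for 7, where 41% were. They were below all of non-treated and mock for 38 of the 45, where 19.5% of all genes were. Top2a had 1.53 and 1.60 FPKM in siSbp2l, Mki67 0.553 and 0.727 and Ccnb1 0.618 and 0.816. For these 3 genes both siSbp2l libraries were below all libraries of non-treated and mock. Mcm6 had 10.1 and 10.8 FPKM, above all 8 control libraries (8.91 and 8.49 in non-treated, 9.37 and 8.95 in mock, 5.68 and 6.13 in NC siRNA #1 and 5.39 and 4.89 in NC siRNA #2). Mcm7 (chr5:138164589-138171862, minus strand) had 30.8 and 28.8 FPKM, also above all 8, which lay between 13.1 in NC siRNA #1 and 25.2 in non-treated. Against the mean of non-treated and mock, Mcm7 changed by 0.38 ± 0.11 (SE, limma, adjusted p = 0.0185), which was lost without either siSbp2l library or mock replicate 2 and with median-ratio or upper-quartile scaling, and Mcm6 by 0.21 ± 0.09 (SE, limma, adjusted p = 0.0659), which did not pass. Mcm5 had 1.76 and 1.79 FPKM in siSbp2l, 5.36 and 3.74 in non-treated and 4.40 and 5.38 in mock, a change of -1.03 ± 0.13 (SE, limma, adjusted p = 0.000105). Mcm3 changed by -0.68 ± 0.14 and Mcm2 by -0.45 ± 0.10, and both passed, Mcm2 not without siSbp2l replicate 1. As a share of the level without siRNA, Mcm5 was at 37.6%, Mcm3 at 53.1%, Mcm2 at 67.6%, Mcm4 at 92.9%, Mcm6 at 117% and Mcm7 at 130%. In the same order, the shares in NC siRNA #1 were 22.2%, 16.2%, 41.5%, 56.3%, 66.2% and 60.5%. Those in NC siRNA #2 were 46.5%, 49.2%, 48%, 74.2%, 57.5% and 89.4%.

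The call for siSbp2l depended on the control. Against the mean of the 4 controls, 5 of 44 genes were called lower (4.08% of all genes tested) and none higher, and the median was -0.56 where all genes had 0.15. These were Top2a (-1.52 ± 0.12 SE, limma adjusted p = 6.89e-06), Ccnb1 (-1.36 ± 0.10), Mki67 (-1.22 ± 0.13), Ube2c (-1.04 ± 0.20) and Rrm2 (-1.02 ± 0.11). At adjusted p alone, 29 were lower (17.9% of all genes) and 3 higher (35.5% of all genes). The 3 were Mcm7 at 0.58 ± 0.10 (SE, limma, adjusted p = 0.00101), Mcm6 at 0.51 ± 0.08 (SE, limma, adjusted p = 0.000373) and Gins1, a GINS subunit, at 0.50 ± 0.17 (SE, limma, adjusted p = 0.0263). When either siSbp2l library was left out, Gins1, Mcm5, Ccnb2 and E2f1 lost significance. Ccne1, Ccne2, Plk1 and Kif23 lost it without siSbp2l replicate 2, Ccnf and Kif20a without siSbp2l replicate 1, and Birc5 without siSbp2l replicate 2, mock replicate 1 or NC siRNA #1 replicate 2. With median-ratio scaling, which brings the median of all genes to 0.00, Mcm6 and Mcm7 still passed as higher and Gins1 did not. Without siSbp2l replicate 1, 3 were called lower, and without the non-treated group 2. Aurkb at -0.91 ± 0.12, Nusap1 at -0.95 ± 0.12, Cenpa at -0.83 ± 0.14, Cdk1 at -0.74 ± 0.12 and E2f1 at -0.59 ± 0.16 led or stood for the other roles. Changes of 0.00 ± 0.10 (SE, limma, adjusted p = 0.995) for Mcm2 and -0.12 ± 0.07 (SE, limma, adjusted p = 0.185) for Pcna did not pass.

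Against non-treated and against mock, 22 genes were called lower each time (4.95% and 4.76% of all genes), 20 of them against both, and none higher. Against NC siRNA #1, 1 gene was called, Mcm7, and it was higher (4.58% of all genes), at 1.05 ± 0.13 (SE, limma, adjusted p = 0.000142). Against NC siRNA #2 no gene of the set was called (limma), with 5 higher and 14 lower at an unadjusted p under 0.05. Of all 11650 genes, 5864 had such a p in either direction. Against the mean of the NC siRNAs there were also 0 calls, with 10 higher and 8 lower at an unadjusted p under 0.05, and the median was 0.02 against 0.13 for all genes. Such a p was reached there by 6531 of all 11650 genes, counting both directions. At adjusted p alone, 8 were higher (31.7% of all genes) and 5 lower (17.7%). Of the 8, 7 were licensing and fork genes: Mcm6 (0.81 ± 0.09 SE, limma adjusted p = 3.86e-05), Mcm7 (0.79 ± 0.11), Gins1 (0.78 ± 0.18), Mcm3 (0.51 ± 0.14), Gins2 (0.50 ± 0.16), Mcm4 (0.47 ± 0.10) and Mcm2 (0.46 ± 0.10). The same 7 passed with median-ratio and with upper-quartile scaling and with a pseudocount of 0.5 or 5. With 1 library left out, Mcm4, Mcm6 and Mcm7 passed each time, while Mcm2 did not without siSbp2l replicate 2, nor Mcm3 and Gins1 without siSbp2l replicate 1. Gins2 did not without NC siRNA #1 replicate 1, NC siRNA #2 replicate 2 or siSbp2l replicate 2. Mcm5 (0.12 ± 0.13 SE, limma adjusted p = 0.465) and Pcna (0.15 ± 0.08 SE, limma adjusted p = 0.135) did not pass.

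The 5 lower genes were Ccne1 (-0.52 ± 0.11 SE, limma adjusted p = 0.00257), Top2a (-0.49 ± 0.14 SE, limma adjusted p = 0.0136), E2f1 (-0.49 ± 0.17 SE, limma adjusted p = 0.04), Mki67 (-0.40 ± 0.14 SE, limma adjusted p = 0.0379) and Ccnb1 (-0.36 ± 0.11 SE, limma adjusted p = 0.0233). Of these, Ccne1 passed with each of 6 libraries left out. Top2a did not pass when either siSbp2l library was left out, and Ccnb1 did not without siSbp2l replicate 1, NC siRNA #1 replicate 2 or NC siRNA #2 replicate 2. With a pseudocount of 5, Ccne1 alone of the 5 passed. E2f1 passed only without NC siRNA #2 replicate 1, and Mki67 only without NC siRNA #2 replicate 2. E2f1 had 1.00 and 1.14 FPKM in siSbp2l, 1.71 and 1.99 in NC siRNA #1 and 1.69 and 2.29 in NC siRNA #2, and Ccne1 had 2.98 and 2.29 in siSbp2l, below all NC siRNA libraries. Prc1 was the only mitotic gene of the set that passed as higher, at 0.44 ± 0.15 (SE, limma, adjusted p = 0.0326), and it did not pass with median-ratio or upper-quartile scaling, nor without siSbp2l replicate 1, NC siRNA #1 replicate 1 or NC siRNA #2 replicate 2.

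The sum over the helicase is weighted to Mcm7, its most abundant subunit per length. Mcm2 to Mcm7 together had 58.57 and 57.28 FPKM in siSbp2l, within the 49.93 to 59.68 of non-treated and mock, and above NC siRNA #1 (28.4 and 31.12) and NC siRNA #2 (40.59 and 40.2). Only non-treated replicate 2, at 49.93, lay below siSbp2l, while non-treated replicate 1 (59.68) and mock (58.98 and 59.6) lay slightly above it. The 18 genes of the kinase, anaphase, spindle and centromere roles had 19.72 and 18.45 FPKM in siSbp2l, between NC siRNA #1 (11.52 and 14.28) and NC siRNA #2 (25.72 and 26.54), where non-treated and mock had 72.45 to 82.76. The ratio of the first sum to the second was 2.97 and 3.1 in siSbp2l, the highest of the 14 libraries, 2.46 and 2.18 in NC siRNA #1, 1.58 and 1.51 in NC siRNA #2, 0.689 to 0.761 in non-treated and mock, 0.759 and 0.804 in siPdgfra and 0.415 in both Day0 libraries. Both sums were formed after the values were seen and are given with no test.

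**Figure D3:**
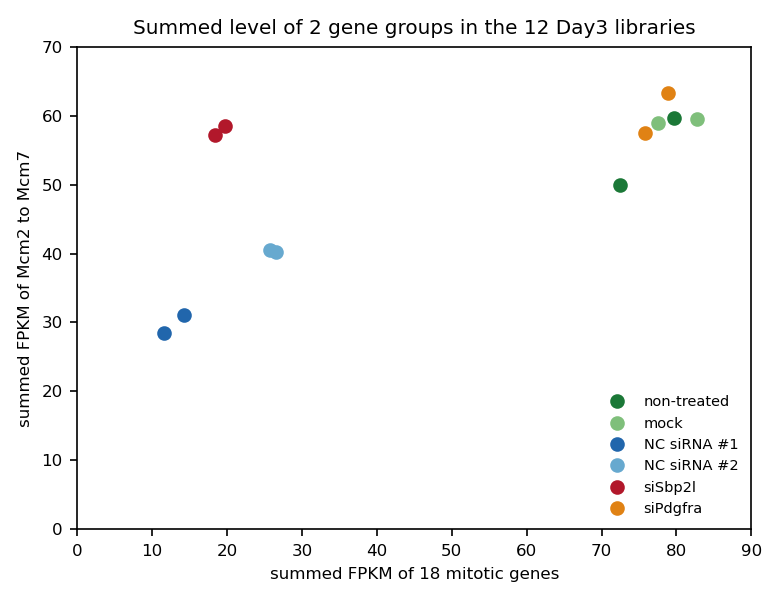
Summed FPKM of Mcm2 to Mcm7 (vertical axis) against that of 18 mitotic genes (horizontal axis) in the 12 Day3 libraries, 1 point a library. The siSbp2l libraries sit at upper left, with an Mcm sum, carried by Mcm7 and Mcm6, in the range of non-treated and mock and a mitotic sum between the NC siRNA groups, although Mcm2, Mcm3 and Mcm5 were below non-treated and mock. The low end of that range is non-treated replicate 2 alone.

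As a share of the mean of non-treated and mock, the 15 licensing, fork and deoxynucleotide genes had a median of 75.3% in siSbp2l, from 19.7% (Rrm2) to 130% (Mcm7), against 47.3% in NC siRNA #1 and 58.1% in NC siRNA #2. The other 30 genes had medians of 23.8%, 18% and 35.2%. Among these 30 the lowest in siSbp2l was Aurkb, the kinase of the passenger complex, at 7.44%, with 0.202 and 0.141 FPKM, and the highest was Ccne1 at 70.1%. Low counts limit such shares: of 540 Day3 values, 32 rested on under 20 fragments, and the siSbp2l value of Aurkb rested on 6 fragments in replicate 2.

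Other replication genes in siSbp2l against the mean of the NC siRNAs were higher in 14 and lower in 7 of 35 tested at adjusted p alone, where 31.7% and 17.7% of all genes were, and Prim1, the catalytic primase subunit, was called at 1.48. Of 47 other mitosis genes tested, 6 were higher and 2 lower, with Lmnb1, lamin B1, called at 1.57 and Anln, anillin of the cleavage furrow, at -1.29. Anln had 1.165 and 1.488 FPKM in siSbp2l, 10.18 and 8.838 in NC siRNA #1 and 1.796 and 2.418 in NC siRNA #2, so the NC siRNAs differed, and it was not called against NC siRNA #2. Rbl2, the p130 pocket protein of DREAM in resting cells, was called lower at -1.08 among 16 regulators tested. OL markers moved in the same comparison: 5 of 7 were called lower, with a median of -2.09. Of 9 OPC markers 2 were called higher, Pdgfra, with 149.9 and 144.4 FPKM against 32.39 to 47.01, and Vcan, with 36.58 and 38.21 against 12.61 to 18.01. The median of the 9 was 0.41. Other OPC markers went the opposite way, Gpr17 with 87.79 and 99.5 FPKM against 172.7 to 207.5, and Sox10 with 240.2 and 243.9 against 264 to 318.4. The part of these markers in the results was not tested.

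Pdgfra KD cells did not share the low level of the other siRNA groups. Top2a had 9.65 and 11.8 FPKM in siPdgfra, Ccnb1 6.09 and 5.42, Mki67 4.66 and 5.31 and Cdk1 5.06 and 5.77. All of these were above all 4 NC siRNA libraries, as were both siPdgfra libraries for 42 of the 45 genes, where 35.6% of all genes tested did so. For 33 of the 45 genes, the 6 libraries of NC siRNA #1, NC siRNA #2 and siSbp2l lay below the 6 of non-treated, mock and siPdgfra, and 2.07% of all genes showed this order. The 12 others included Mcm4, Mcm6, Mcm7, Gins1, Gins2, Cdt1, Rrm1 and Tyms, and also Ccne1, Ccne2, Ccnb2 and E2f1.

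Against NC siRNA #1, 31 of 44 genes were called higher in siPdgfra (5.07% of all genes), and against NC siRNA #2 21 (5.12%), all 21 of them also called against NC siRNA #1. None was called lower. The largest change from the mean of the NC siRNAs was that of Prc1, at 2.51 ± 0.15 (SE, limma, adjusted p = 1.43e-06), with 9.31 and 10.8 FPKM in siPdgfra against 0.724 and 0.924 in NC siRNA #1 and 1.46 and 0.759 in NC siRNA #2. Top2a changed by 1.70 ± 0.14, Cdk1 by 1.68 ± 0.13, Ube2c by 1.68 ± 0.22, Birc5 by 1.60 ± 0.21 and Mcm3 by 1.31 ± 0.14. Against this mean, 25 of 44 genes were called higher, where 479 of all 11650 genes were called higher and 487 lower. By role, the median ran from 0.25 for deoxynucleotide supply and 0.68 for licensing and fork genes to 1.58 for Mki67 and Top2a, and all 6 spindle genes were called. Among the other lists, 13 of 47 mitosis genes tested were called higher, led by Pttg1, securin, at 1.56, and 5 of 35 replication genes. Of 6 astrocyte markers tested, 4 were called lower in the same comparison, as were 2 of 7 OL markers, and their part in the result was not tested.

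Against cells without siRNA the difference was small. Against non-treated 1 gene was called higher, Ccne1 (6.15% of all genes), and against mock 1, Ccne2 (4.75%). Against the mean of non-treated and mock there were 0 calls (limma), with 5 higher and 7 lower at an unadjusted p under 0.05, and the median was 0.09, the same as that of all genes. Such a p was reached there by 6781 of all 11650 genes, counting both directions. At adjusted p alone, 4 were higher (31.2% of all genes): Ccne1 (0.89 ± 0.11 SE, limma adjusted p = 7.8e-05), Ccne2 (0.77 ± 0.16 SE, limma adjusted p = 0.00251), Ccnf, cyclin F (0.62 ± 0.13 SE, limma adjusted p = 0.00259), and Foxm1 (0.40 ± 0.12 SE, limma adjusted p = 0.0186). Lower at adjusted p alone were 7 (21.3% of all genes): Ccnb2 (-0.54 ± 0.20), Cenpe (-0.51 ± 0.14), Cdc20 (-0.42 ± 0.15), Ccnb1 (-0.38 ± 0.11), Top2a (-0.36 ± 0.14), Pcna (-0.30 ± 0.08) and Rrm1 (-0.23 ± 0.08). Top2a passed only without non-treated replicate 1. Ccnb2 did not without non-treated replicate 1, either mock library or siPdgfra replicate 2, Cdc20 without non-treated replicate 1, mock replicate 2 or either siPdgfra library, and Rrm1 without either mock or either siPdgfra library. Foxm1, Cenpe and Pcna did not without siPdgfra replicate 1, nor Ccnb1 without siPdgfra replicate 2.

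Ccne1 (chr7:38097984-38107490, minus strand) was higher in siPdgfra than in every control library. The share of all genes with this order was not counted. Both siPdgfra libraries lay above all of non-treated and mock for 9 of the 45 genes, where 35.4% of all genes did so. Ccne1 had 8.07 and 7.42 FPKM in siPdgfra, above the highest control library at 5.37. It changed by 1.05 ± 0.12 (SE, limma, adjusted p = 8.28e-05) from non-treated, 0.73 ± 0.12 from mock, 0.95 ± 0.12 from NC siRNA #1 and 0.55 ± 0.12 from NC siRNA #2. Ccne2 had 5.61 and 5.16 FPKM, against 2.92 and 4.37 in non-treated, 1.70 and 2.45 in mock, 1.76 and 1.32 in NC siRNA #1 and 1.58 and 1.35 in NC siRNA #2. It was higher than in all 8 control libraries, and the change was 0.48 ± 0.18 (SE, limma, adjusted p = 0.0516) against non-treated, which missed the threshold, and 1.06 ± 0.18 (SE, limma, adjusted p = 0.00112) against mock. Ccne1 and Ccnf were higher at adjusted p under 0.05 against each of the 4 controls, and the share of all genes that were so was not counted. Ccne2 overlaps Ints8 on the other strand, and the counting setting for strand is not given in the sources used here.

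Against the mean of all 4 controls, siPdgfra had 2 genes called higher (3.97% of all genes), Prc1 at 1.37 ± 0.14 (SE, limma, adjusted p = 2.39e-05) and Ccne2 at 1.06 ± 0.14 (SE, limma, adjusted p = 0.000183), 35 higher at adjusted p alone (32.4% of all genes) and none lower, with a median of 0.62 against 0.09. With median-ratio or upper-quartile scaling 1 was called, and without non-treated replicate 1 or siPdgfra replicate 1 there were 4. Cdk1 at 0.98 ± 0.12, Ccne1 at 0.82 ± 0.10, Birc5 at 0.84 ± 0.19, Cdc45 at 0.78 ± 0.13 and Foxm1 at 0.73 ± 0.11 were below 2-fold. Without siPdgfra replicate 2 Birc5 did not pass. This mean joins controls that themselves differ for 23 of these genes.

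**Figure D4:**
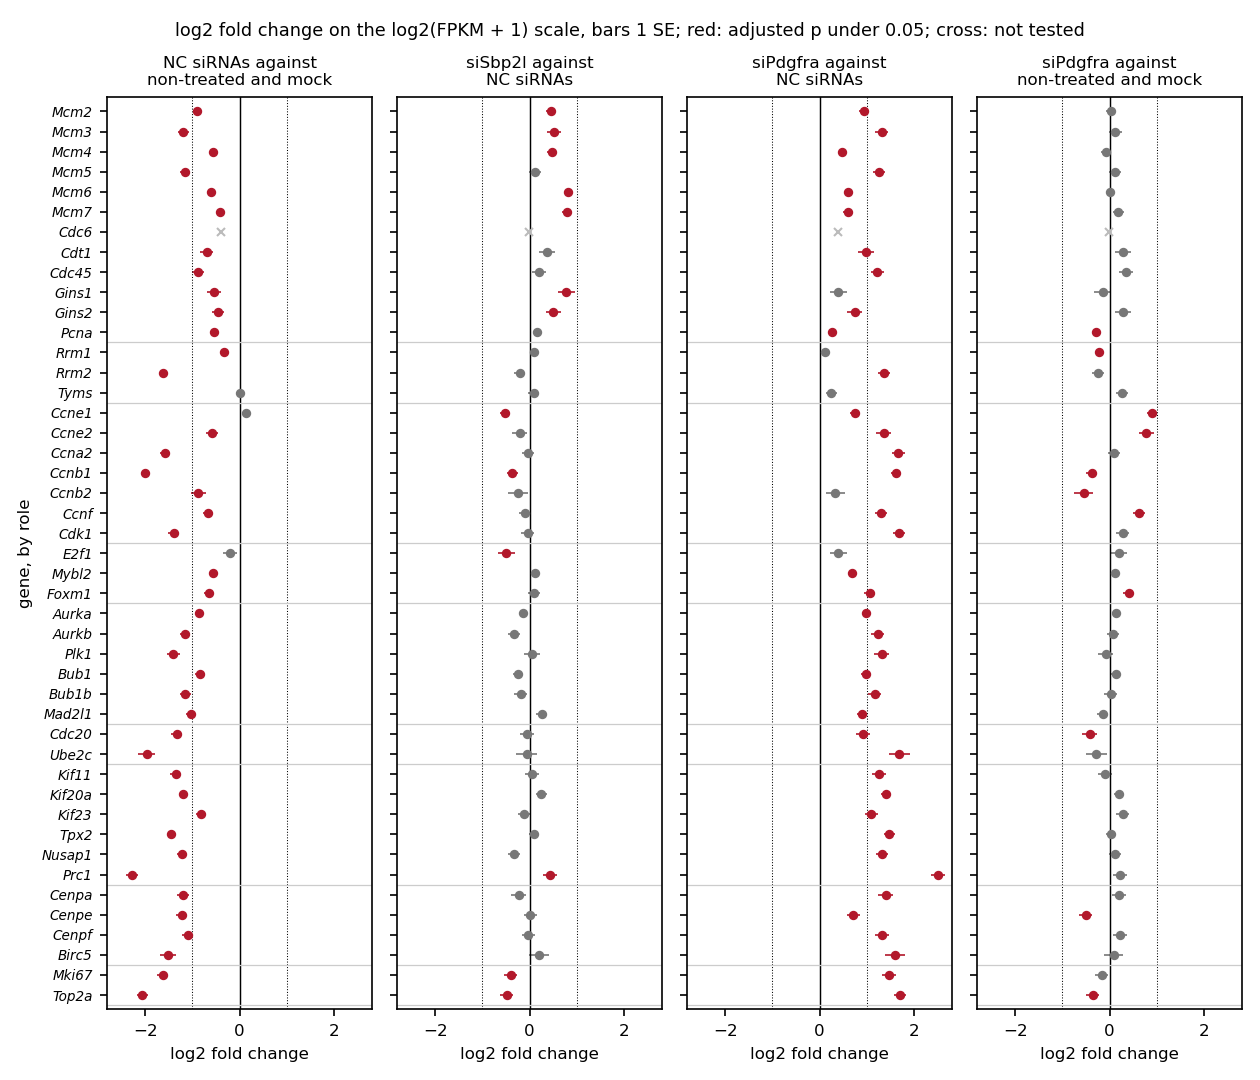
log2 fold change of each gene, with 1 SE, on the log2(FPKM + 1) scale in 4 comparisons of Day3 groups that share libraries, genes ordered by role. Red points have an adjusted p under 0.05 and the cross marks Cdc6, which was not tested. With the NC siRNAs 41 genes were lower than without siRNA (11.8% of all genes). In siSbp2l 8 genes were higher than with them (31.7% of all genes) and 5 lower (17.7%). In siPdgfra 39 genes were higher than with the NC siRNAs, where 6758 of all 11650 genes had an unadjusted p under 0.05 in either direction. Against cells without siRNA, 4 were higher in siPdgfra (31.2% of all genes) and 7 lower (21.3%).

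The knockdowns were also compared directly. In siSbp2l against siPdgfra, 26 of 44 genes were called lower (6.73% of all genes) and none higher, with a median of -1.15 against 0.06. Of the genes called, Aurkb, Bub1, Bub1b, Kif23 and Cenpf had passed the filter only through siPdgfra, non-treated and mock. Top2a changed by -2.19 ± 0.16 (SE, limma, adjusted p = 3.26e-06), Prc1 by -2.07 ± 0.17, Ccnb1 by -1.98 ± 0.13, Mki67 by -1.87 ± 0.16, Ube2c by -1.74 ± 0.26, Cenpa by -1.63 ± 0.18, Rrm2 by -1.58 ± 0.14 and Aurkb by -1.55 ± 0.15. Both cyclin E genes were called, Ccne1 at -1.27 ± 0.12 and Ccne2 at -1.57 ± 0.18. Of the 11 licensing and fork genes tested, 2 were called, Mcm5 at -1.14 ± 0.15 and Cdc45 at -1.02 ± 0.17. The change was -0.02 ± 0.11 (SE, limma, adjusted p = 0.92) for Mcm4, 0.21 ± 0.10 (SE, limma, adjusted p = 0.103) for Mcm6, 0.19 ± 0.13 (SE, limma, adjusted p = 0.244) for Mcm7 and -0.10 ± 0.09 (SE, limma, adjusted p = 0.393) for Pcna, none of which passed.

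Across all Day3 groups, the summed FPKM of the 8 astrocyte markers was 218.9 to 372.1 in the NC siRNA and siSbp2l libraries and 177.7 to 377.3 in non-treated, mock and siPdgfra. That of the 7 neuron markers, mostly Tubb3, was 119.7 to 276.5 and 48.19 to 240.5. That of the 8 microglia markers, nearly all P2ry12, was 2.939 to 9.459 and 0.768 to 7.62. The ranges of all 3 lists overlapped between these sets of libraries, and the part of these markers in the results was not tested. Among the 45 genes, Gins2, Ccne2, Ccna2, Cdc20, Nusap1 and Kif20a overlap a gene on the other strand, Foxm1 overlaps a gene on its own strand, and Mcm7 and Ccnf hold microRNA genes on theirs, so their values may include those reads.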

How the data were processed

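Polyadenylated RNA of 14 libraries, 2 in each of 7 groups, was sequenced from stranded TruSeq mRNA libraries. The authors processed the reads in OmicSoft ArrayStudio on mm10 with refGene annotation (aligner, version and strand setting are not given in the sources used here) and deposited FPKM values per gene. Their fold changes and p-values from DESeq 2 stand in other columns and were not used. Depth was estimated from the deposited FPKM of genes with few fragments, of which 88.81% to 92.62% came out whole within 0.1 of a fragment. Intervals of such counts cover counting error only.

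Values were tested as log2(FPKM + 1) with limma 3.58.1 (R 4.3.3, trended and robust), Benjamini-Hochberg adjustment and a filter of 1 FPKM in 2 libraries, in 1 fit of 14 libraries for Day0 comparisons and 1 of 12 libraries at Day3. A call needed a 2-fold change and an adjusted p under 0.05. All library pairs differed beyond sampling noise and counted as 2 libraries. Per the study's methods they were independent replicates, but the labels give no cultures, so p-values measure the spread between these libraries. Same-numbered libraries did not deviate together in a consistent direction (r from -0.3802 to 0.4729 over 21 pairs of groups, 4 over 0.1). The highest r were 0.4729 for Day0 with non-treated and 0.3938 for Day0 with siPdgfra.

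The 45 genes and the other lists were chosen with earlier results of these data known. Named were the member with the largest change in each role, called members where at most 10, members that went against the median with an adjusted p under 0.05, and Mki67, Top2a, Cdk1, Ccnb1, Mcm2, Mcm5, Pcna, Ccne1, Ccne2 and E2f1, and further members were named after their values were seen. Alternatives were other scalings, pseudocounts, filters, controls, a replicate block and each library left out.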

Additional observations from a re-analysis of the deposited data

How the results depend on the processing

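The count of members called depended on the fold threshold, the pseudocount and the control. For siSbp2l against the mean of the 4 controls, 5 lower became 9 with a pseudocount of 0.5 and 0 with 5, 29 at adjusted p alone, 0 against the NC siRNAs, 22 against non-treated and mock, and 2 against mock and the NC siRNAs. The median of the members there turned from -0.56 to 0.0166 against the NC siRNAs alone. For siPdgfra, 2 higher became 1 with median-ratio and 1 with upper-quartile scaling, 4 and 0 with pseudocounts of 0.5 and 5, 35 at adjusted p alone, 25 against the NC siRNAs, 0 against non-treated and mock, and 8 against mock and the NC siRNAs. For siSbp2l against siPdgfra, 26 became 3 with a pseudocount of 5 and 13 with a filter of 5 FPKM. For the NC siRNAs against non-treated and mock, 23 became 4, 12 and, at adjusted p alone, 41. For NC siRNA #1 against #2, 1 became 5 and 0 with pseudocounts of 0.5 and 5, and 15 at adjusted p alone. A larger pseudocount shrinks the fold of low genes by construction, and a higher filter tests fewer genes; other causes were not tested.

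With each library left out, the counts ranged from 44 to 45 for non-treated and for mock against Day0, 3 to 6 for siSbp2l and 2 to 4 for siPdgfra against the 4 controls, 26 to 27 between the knockdowns, 0 to 3 between the NC siRNAs and 22 to 24 for the NC siRNAs against no siRNA. The replicate block, though the numbers did not consistently pair the libraries, left these counts at 45, 45, 5, 2, 26, 1 and 23. Of the single members' alternatives, 7003 kept their side of the threshold, 95 lost it, 53 gained it and 0 reversed. Depth limits the lowest values: 7 of 540 Day3 values rested on under 10 fragments, the fewest being 5.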
